A study of Mus musculus with 6 samples.

Results

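The genes described here are 35 genes of mitosis and S phase, listed by name among the 31053 genes of the count table: Mki67, Top2a, Cdk1, Ccna2, Ccnb1, Ccnb2, Cdc20, Ube2c, Aurka, Aurkb, Plk1, Birc5, Bub1, Bub1b, Mad2l1, Cenpa, Cenpe, Cenpf, Ndc80, Nuf2, Spc25, Kif11, Kif20a, Nusap1, Tpx2, Ckap2l, Hmmr, Kif23, Prc1, Anln, Ect2, Racgap1, Rrm2, Tyms and Tk1. They were followed in quiescent muscle stem cells (qMuSCs), which were sorted by FACS from resting hindlimb muscle for nuclear GFP driven by Pax7, the transcription factor that marks muscle stem cells. The study compared 3 WT mice (Pax7nGFP/+;Pax7+/+;Dio2Fl/Fl; c124, c129 and c130) with 3 cD2KO mice (Pax7nGFP/+;Pax7-CreERT2/+;Dio2Fl/Fl; fl125, fl126 and fl128), in which loss of D2, the deiodinase that makes active thyroid hormone inside cells, was induced. All 6 mice were 3 to 4 months old, received tamoxifen and carried the floxed Dio2 alleles and the Pax7-nGFP transgene, so that the groups differed both in Dio2 deletion and in carrying Cre. The Cre recombinase was driven by Pax7 and therefore acts in Pax7-expressing cells, and RNA of each mouse was sequenced as a separate library.

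Dividing cells switch on the S-phase genes of this group as they begin to copy their DNA and the mitotic genes later in the cycle. The products make the precursors of DNA, condense and attach chromosomes, run the spindle and cut the daughter cells apart, and quiescent cells keep most of them silent. Their promoters often share a cell cycle genes homology region (CHR) and CCAAT boxes, through which the DREAM complex represses them in resting cells and B-Myb and FoxM1, joined to the MuvB core, activate them in cycling ones, whereas many S-phase genes are controlled by E2F factors. Resting muscle stem cells divide rarely, and transcripts of this kind are used as a readout of cells that have entered the cycle.

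The promoter sequences of the genes on which the results below turn are shown so that the elements many of them share, and their absence from the stretch shown for Birc5, can be seen. They are taken from RefSeq for GRCm38.p6, the assembly of mm10, and run 5′ to 3′ on the strand of the gene, with the CHR (TTTGAA or TTCGAA on either strand) and the CCAAT box (either strand) in capitals. Positions are counted from the RefSeq transcription start, with -1 for the base before it. The stretch of Mki67 (chr7:135716380-135716579, minus strand) covers -200 to -1, that of Top2a (chr11:99024190-99024424, minus strand) -235 to -1, that of Cdc20 (chr4:118437353-118437443, minus strand) -100 to -10 and that of Ube2c (chr2:164769693-164769897, plus strand) -236 to -32, with a further Ube2c site at chr2:164769885-164769914 from -44 to -15. Kif23 is shown by its site at chr9:61946782-61946811 (minus strand, -12 to 18), Cdk1 by chr10:69352939-69353128 (minus strand, -216 to -27) and Birc5 by chr11:117849137-117849236 (plus strand, -100 to -1).
Mki67: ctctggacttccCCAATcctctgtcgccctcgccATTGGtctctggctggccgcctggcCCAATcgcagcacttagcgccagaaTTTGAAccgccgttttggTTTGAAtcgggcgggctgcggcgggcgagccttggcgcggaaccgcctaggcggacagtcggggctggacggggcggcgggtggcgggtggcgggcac
Top2a: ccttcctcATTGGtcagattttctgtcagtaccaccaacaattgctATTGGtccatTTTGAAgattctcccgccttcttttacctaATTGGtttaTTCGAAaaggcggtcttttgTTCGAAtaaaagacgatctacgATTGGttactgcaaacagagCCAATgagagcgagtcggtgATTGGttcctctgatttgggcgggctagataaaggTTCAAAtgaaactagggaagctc
Cdc20: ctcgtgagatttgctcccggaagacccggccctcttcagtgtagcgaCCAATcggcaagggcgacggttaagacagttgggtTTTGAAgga
Ube2c: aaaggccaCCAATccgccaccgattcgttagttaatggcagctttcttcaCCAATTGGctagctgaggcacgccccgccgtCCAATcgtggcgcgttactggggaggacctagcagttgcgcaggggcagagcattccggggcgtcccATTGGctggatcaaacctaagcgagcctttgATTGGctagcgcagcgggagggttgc
Ube2c CHR site: gcgggagggttgcaaTTCAAAcgcgggcgg
Kif23: cgctgATTGGcctgTTTGAAatgcgccggg
Cdk1: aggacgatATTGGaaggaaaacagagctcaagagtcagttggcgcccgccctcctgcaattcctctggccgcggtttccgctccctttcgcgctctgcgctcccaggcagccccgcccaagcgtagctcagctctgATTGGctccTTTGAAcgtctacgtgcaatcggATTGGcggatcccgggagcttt
Birc5: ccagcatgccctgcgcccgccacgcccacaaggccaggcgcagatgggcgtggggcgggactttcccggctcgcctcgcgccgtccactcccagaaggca

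The stretch of Mki67 held 5 matches and that of Top2a 10, while Birc5 had none in its whole window. The CCAATTGG of Ube2c is a pair of overlapping CCAAT boxes on opposite strands. Over windows from 250 bases before to 50 bases after the start, 31 of the 35 genes had an entry, in 33 windows (Ect2 and Prc1 had 2 each). Ccna2, Aurkb, Kif20a and Tpx2 had none. A CHR was found in 24 of the 33 windows (72.7%), against 19.2% of all 32851 windows and 13.4% of the 11730 windows of genes that passed the expression minimum. A CCAAT box stood in 25 windows (75.8%; 37.4% of all windows and 36.9% of those of expressed genes), and both motifs together in 22 windows (66.7%; 7.52% and 5.18%). The match to an E2F site (TTTGGCGC or TTTCGCGC on either strand) was present only in Cdk1, at -131 to -124, where it stands in lower case above, and in 0.813% of all windows. By role, a CHR occurred in 22 of the 28 mitotic genes with an entry and in 0 of the 3 S-phase genes (Rrm2, Tyms and Tk1), of which Rrm2 alone had a CCAAT box. The plot of motif positions shows these matches gene by gene. A match describes letters in the window and not a site in use. Bases outside the windows were not searched, so that an element there, in Birc5 or another gene, would be missed.

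**Figure D1:**
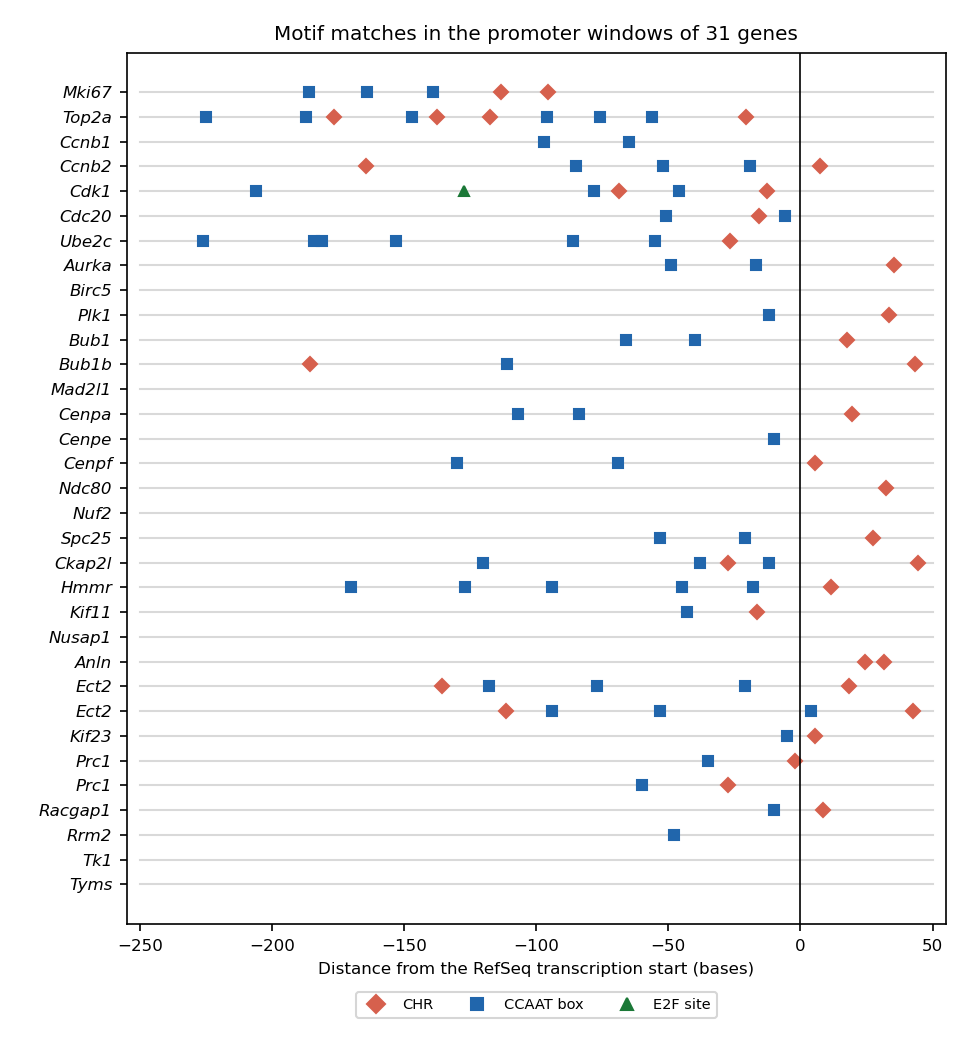
Each line is a RefSeq promoter window of 1 of 31 genes, drawn from 250 bases before to 50 bases after the transcription start (x axis, distance in bases; Ect2 and Prc1 have 2 windows), with diamonds for CHR, squares for CCAAT boxes and a triangle for the E2F match. A CHR is seen in 24 of the 33 windows, and Tk1, Tyms, Birc5, Mad2l1, Nuf2 and Nusap1 show no match.

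The libraries held 2184073 to 3897787 counts on genes, and 3 counts, taken here as the floor, stood for 0.773 to 1.37 CPM (counts scaled to TMM library sizes of 1e6). Dio2 was counted at 21, 5 and 10 in c124, c129 and c130 and at 15, 5 and 1 in fl125, fl126 and fl128, or 5.41, 1.86 and 3.48 CPM against 6.83, 1.72 and 0.316 CPM, so that the library labelled fl125 had the highest level of the 6. Counts over the full gene cannot tell whether the floxed part was deleted. The library fl125 also stood apart from the other 5 on the first principal component (45.1% of the variance; 72.6 against -50.7 to 7.52). Pax7 was present in all 6 libraries at 213 to 691 CPM, together with markers of other cells that are described last. Some of these outweighed the stem cell markers. The mean sum of the 12 stem cell markers was 2329 CPM (WT) and 3081 CPM (cD2KO). The mean was 13322 and 12932 CPM for erythroid, 7006 and 12583 CPM for mural and 5150 and 3682 CPM for fibroadipogenic markers. Endothelial, lymphoid and committed myogenic sums were below those of stem cell markers, and myeloid sums were above them only in WT. Such sums do not give shares of cells, which were not tested. In bulk RNA, fewer cells of a type and less RNA per cell cannot be told apart. All p-values measure the spread between these 6 mice.

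Taken as a sum, the 35 genes were lower in each cD2KO mouse than in any WT mouse. Their summed level was 272, 338 and 306 CPM in c124, c129 and c130 and 184, 227 and 188 CPM in fl125, fl126 and fl128. The groups did not overlap, and the mean was 305 ± 33.3 CPM in the WT group against 200 ± 23.7 CPM in the cD2KO group (SD, n = 3 per group), 34.5% lower (a log2 ratio of -0.61). The 95% exact Poisson intervals, which cover counting error only, ran from 256 to 361 CPM over the WT mice and from 167 to 245 CPM over the cD2KO mice. Without fl125 the log2 ratio was -0.56. The sum rests on 879 to 1055 counts in WT and 405 to 661 in cD2KO libraries, which is 0.0271% to 0.0350% and 0.0176% to 0.0222% of all counts, so that dividing-cell transcripts were rare in both groups. Top2a supplied 15.0% of the counts of the list, Tyms 7.10% and Mki67 5.75%, with no correction for length. Leaving out Top2a, the log2 ratio was -0.60.

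**Figure D2:**
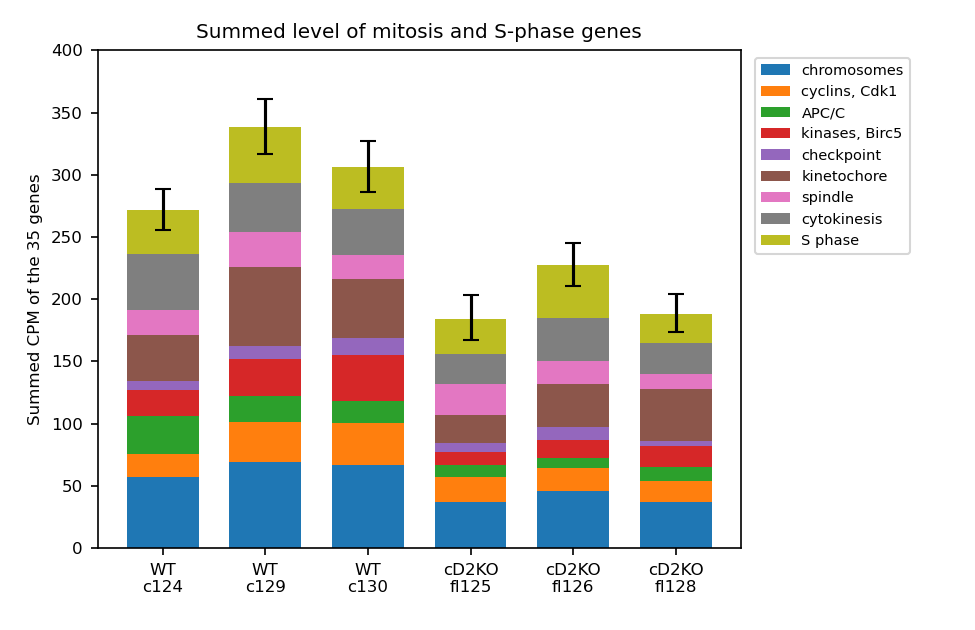
The bars give the summed CPM of the 35 genes in each mouse (y axis, from 0), stacked by role, with 95% exact Poisson intervals of the sum as error bars. The 3 WT bars stand at 272 to 338 CPM and the 3 cD2KO bars at 184 to 227 CPM.

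Single genes did not pass the correction for multiple tests. Of the 35 genes, 24 had a mean of more than 10 normalized counts and entered edgeR's quasi-likelihood test with the other genes of the table (11633 in all). At an unadjusted p under 0.05, 6 of the 24 (25%) were lower in the cD2KO libraries, namely Birc5, Ube2c, Top2a, Kif23, Mki67 and Cdc20, and 0 were higher, where 6.62% of all genes tested were lower and 5.34% higher. The lowest adjusted p of the 24 was 0.253 (edgeR's quasi-likelihood test, Benjamini-Hochberg), and 0 of them had an adjusted p under 0.05, as did 1 of all genes tested (0.00860%). The log2 fold change (cD2KO minus WT) was below 0 in 21 of the 24 and in 51.9% of all genes tested, with a median of -0.57 for the 24 and -0.02 for all genes. It ran from -1.30 (Ccnb2) to 0.57 (Tpx2), with standard errors of 0.250 to 0.781. Without fl125 the median was -0.31 and 2 genes, Ube2c and Birc5, were lower at an unadjusted p under 0.05 of the 25 then tested, where 7.43% of all genes were lower. The number was also 2 without c129 or fl128 and 3 without fl126 (3.46%, 5.81% and 5.45% of all genes lower), and the median without fl126 was -0.77.

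Counted without a test, all 3 cD2KO mice lay below all 3 WT mice in 8 of the 24 genes, against a share of 10% of all genes tested. They lay above them in 0 of the 24 (8.05% of all genes tested). Over the 35 genes, with those under the expression minimum, the groups were apart in 11, all with the cD2KO mice lower, and overlapped in the other 24. Among all genes with at least 1 count, 8.14% had all cD2KO mice below all WT mice and 5.75% above. The mean level was higher in WT for 30 genes and higher in cD2KO for 5 (Cdk1, Tpx2, Prc1, Bub1b and Kif11).

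**Figure D3:**
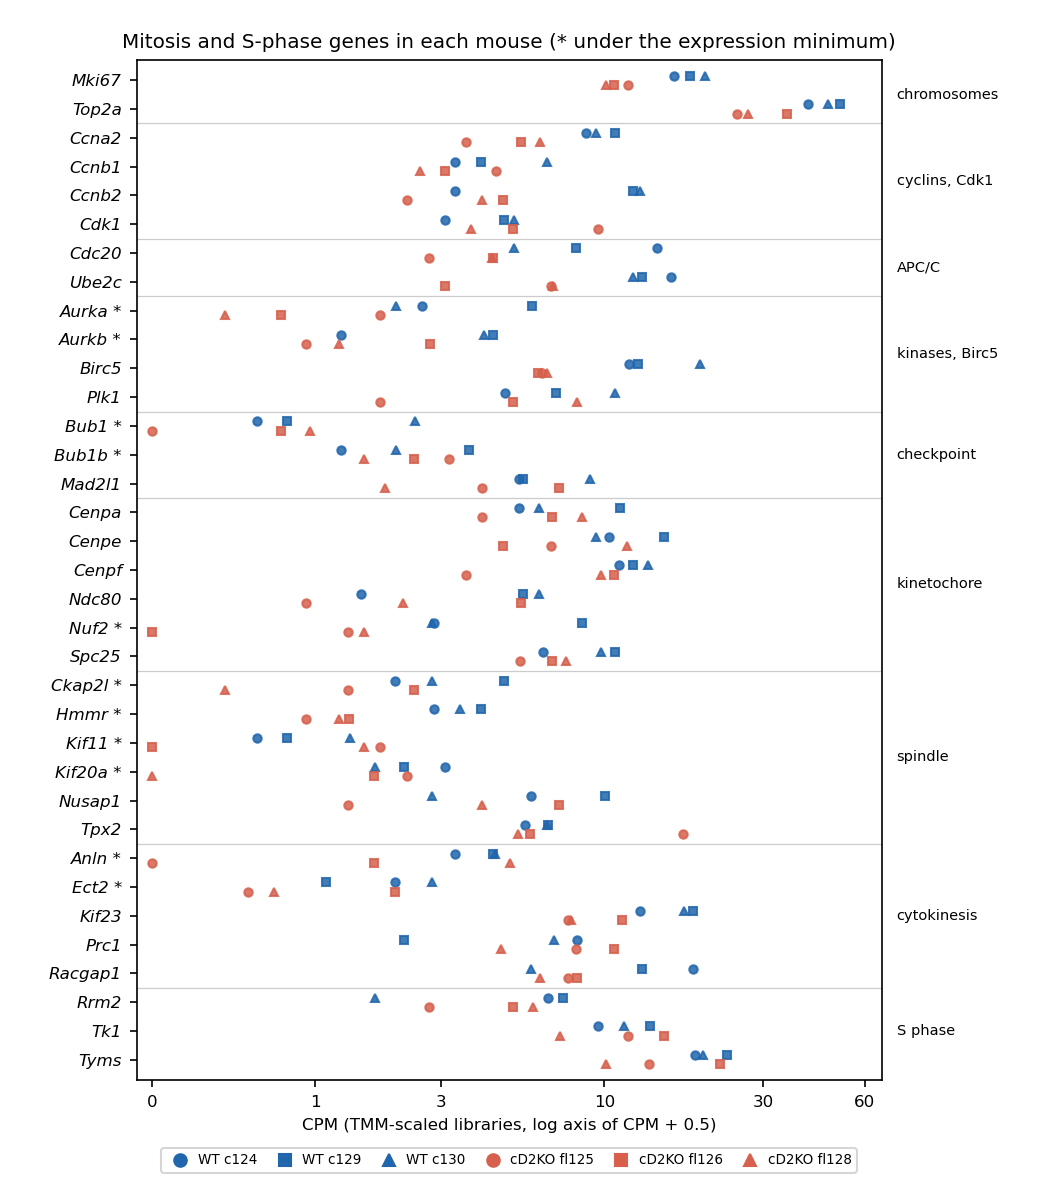
Each point is the level of a gene in 1 mouse in CPM (log axis of CPM + 0.5), in blue for WT and in red for cD2KO, with genes grouped by role and an asterisk on the 11 genes under the expression minimum. The red points lie left of all blue points in 11 of the 35 rows, among them Mki67, Top2a, Ube2c and Birc5.

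Among the genes of chromosome structure, both were lower in every cD2KO mouse. Mki67, on chromosome 7 (135689784 to 135716361, minus strand), codes for the protein that coats mitotic chromosomes and is the usual stain for dividing cells. It was counted 63, 49 and 58 times in the WT and 26, 31 and 32 times in the cD2KO mice, which is 16.2, 18.2 and 20.2 CPM and 11.8, 10.7 and 10.1 CPM. The WT mice were all above the cD2KO mice, with means of 18.2 ± 1.98 and 10.9 ± 0.886 CPM (SD, n = 3 each). Its log2 fold change was -0.74 ± 0.335 (SE, edgeR, unadjusted p = 0.0438, Benjamini-Hochberg adjusted p = 0.400). Leaving out any 1 mouse gave -0.82 to -0.66, and in each of these 6 fits the unadjusted p rose above 0.05.

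Top2a, on chromosome 11 (98992943 to 99024189, minus strand), codes for the topoisomerase that untangles sister chromatids. With 159, 137 and 134 counts in WT and 55, 103 and 86 in cD2KO mice it had the most counts of the list, and its levels were 40.9, 50.9 and 46.6 CPM and 25.0, 35.4 and 27.2 CPM. The lowest WT mouse, c124, stood above the highest cD2KO mouse, fl126. Its log2 fold change was -0.65 ± 0.250 (SE, edgeR, unadjusted p = 0.0205, Benjamini-Hochberg adjusted p = 0.322), the smallest standard error of the list. The unadjusted p passed 0.05 without c129 (-0.56), fl125 (-0.52) or fl128 (-0.60).

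Cdc20 and Ube2c, which serve the anaphase-promoting complex (APC/C), the ubiquitin ligase that ends mitosis, were both lower in the cD2KO libraries at an unadjusted p under 0.05. Cdc20, the mitotic activator on chromosome 4 (118432901 to 118437352, minus strand), had 56, 22 and 15 counts in WT and 6, 13 and 14 counts in cD2KO mice, or 14.4, 8.17 and 5.22 CPM against 2.73, 4.47 and 4.42 CPM. One WT mouse, c124, was far above the other 2, and the gap between the lowest WT and the highest cD2KO mouse was small. The log2 fold change was -1.25 ± 0.563 (SE, edgeR, unadjusted p = 0.0441, Benjamini-Hochberg adjusted p = 0.400), and without c124 it was -0.77 with an unadjusted p of 0.271. It was also above 0.05 without c129, fl125, fl126 or fl128, with log2 fold changes of -1.35 to -1.03.

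Ube2c, the ubiquitin-conjugating enzyme of the complex on chromosome 2 (164769898 to 164778822, plus strand), had 62, 35 and 35 counts in WT and 15, 9 and 22 in cD2KO mice. Its levels of 16.0, 13.0 and 12.2 CPM in WT were all well above the 6.83, 3.10 and 6.95 CPM in cD2KO mice, a log2 fold change of -1.29 ± 0.452 (SE, edgeR, unadjusted p = 0.0128, Benjamini-Hochberg adjusted p = 0.257). Without c124 (-1.16) or fl126 (-0.99) its unadjusted p was 0.0542 or 0.0552. Ube2c shares 592 exon bases with Tnnc2, a troponin gene on the opposite strand at 443 to 1583 CPM, and Cdc20 shares 53 with Elovl1 at 134 to 192 CPM. The use of strand in the counting is not given in the sources used here. Reads in the shared bases may therefore be missing from Ube2c and Cdc20, or may include reads of these neighbours. Both neighbours had higher means in cD2KO than in WT mice, with log2 fold changes of 0.62 for Tnnc2 and 0.17 for Elovl1 (edgeR, Benjamini-Hochberg adjusted p = 0.466 and 0.793).

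Birc5 had the lowest p of the 24 genes tested. It lies on chromosome 11 (117849251 to 117855743, plus strand) and codes for survivin, which takes the kinase Aurora B to centromeres and the midzone. It had 46, 34 and 56 counts in WT and 14, 18 and 21 in cD2KO mice, or 11.8, 12.6 and 19.5 CPM against 6.38, 6.19 and 6.63 CPM. The cD2KO mice lay close together at 6.40 ± 0.222 CPM, below all WT mice at 14.7 ± 4.21 CPM (SD, n = 3 each), and the log2 fold change was -1.19 ± 0.412 (SE, edgeR, unadjusted p = 0.0121, Benjamini-Hochberg adjusted p = 0.253). Without c130 it was -0.93 with an unadjusted p of 0.0751. Of the kinases with Birc5, Plk1, which drives mitotic entry and spindle assembly, overlapped between the groups (4.89, 7.05 and 10.8 CPM in WT and 1.82, 5.16 and 8.21 CPM in cD2KO mice; log2 fold change -0.54, edgeR, Benjamini-Hochberg adjusted p = 0.793). Aurka, the spindle pole kinase, was under the expression minimum with 10, 16 and 6 counts in WT and 4, 2 and 1 in cD2KO mice. These did not overlap in CPM, but c130 (2.09 CPM) lay only just above fl125 (1.82 CPM). Aurkb, the kinase that survivin guides, was also under it, with 5, 12 and 12 counts against 2, 8 and 4.

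Of the cyclins and Cdk1, which form the engine of mitosis, 0 of 4 had an unadjusted p under 0.05. Cdk1, the mitotic kinase on chromosome 10 (69335146 to 69352938, minus strand), had 12, 13 and 15 counts in WT and 21, 15 and 12 in cD2KO mice. Its levels of 3.09, 4.83 and 5.22 CPM and 9.56, 5.16 and 3.79 CPM overlapped, with the highest value in fl125 (log2 fold change 0.48 ± 0.602, SE, edgeR, Benjamini-Hochberg adjusted p = 0.823). Ccnb1, its cyclin partner on chromosome 13 (100778650 to 100786570, minus strand), also overlapped, at 3.35, 4.08 and 6.61 CPM in WT and 4.55, 3.10 and 2.53 CPM in cD2KO mice (13, 11 and 19 against 10, 9 and 8 counts; log2 fold change -0.47 ± 0.638, SE, edgeR, Benjamini-Hochberg adjusted p = 0.845). The other cyclins had lower fold changes. Ccnb2, a second B-type cyclin, had the lowest fold change of the 24 genes, -1.30 ± 0.621 (SE), with 3.35, 12.3 and 12.9 CPM in WT and 2.28, 4.82 and 4.11 CPM in cD2KO mice, and the groups overlapped through c124 (edgeR, Benjamini-Hochberg adjusted p = 0.435). Ccna2, the cyclin of S phase and G2, was at 8.76, 10.8 and 9.40 CPM in WT and at 3.64, 5.50 and 6.32 CPM in cD2KO mice without overlap (log2 fold change -0.88, edgeR, Benjamini-Hochberg adjusted p = 0.507), and shares 510 exon bases with Exosc9 on the opposite strand.

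The kinetochore and centromere genes, which tie chromosomes to microtubules, had no member with an unadjusted p under 0.05 among the 5 above the expression minimum. These 5 (Cenpa, the centromeric histone; Cenpe, a kinetochore motor; Cenpf; and the Ndc80 complex subunits Ndc80 and Spc25) all had negative log2 fold changes, from -0.59 (Cenpf) to -0.20 (Cenpa). Cenpf was at 11.1, 12.3 and 13.6 CPM in WT and 3.64, 10.7 and 9.79 CPM in cD2KO mice, where fl125 was far below the other 2. Nuf2, a further subunit of the Ndc80 complex, was under the minimum with 11, 23 and 8 counts in WT and 3, 0 and 5 in cD2KO mice, and was lower at an unadjusted p under 0.05 in the fit without a minimum described below. Of the spindle checkpoint, Mad2l1 was at 5.41 to 9.05 CPM in WT and 1.89 to 7.22 CPM in cD2KO mice, overlapping, and Bub1 and Bub1b were at 10 counts or fewer in every mouse.

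Among the genes of cytokinesis, Kif23 had an unadjusted p under 0.05. This kinesin of the central spindle, on chromosome 9 (61915905 to 61946774, minus strand), had 50 counts in each WT mouse and 17, 33 and 25 in the cD2KO mice. In CPM it was at 12.9, 18.6 and 17.4 in WT and 7.74, 11.3 and 7.90 in cD2KO mice, without overlap, and its log2 fold change was -0.84 ± 0.376 (SE, edgeR, unadjusted p = 0.0416, Benjamini-Hochberg adjusted p = 0.396). Without c129, c130, fl125 or fl128 it was -0.79 to -0.71, and the unadjusted p was 0.0933 to 0.114. Its partner in the centralspindlin complex, Racgap1, was at 18.5, 13.0 and 5.92 CPM in WT and 7.74, 8.25 and 6.32 CPM in cD2KO mice, so that c130 was below all 3 cD2KO mice (log2 fold change -0.76, edgeR, Benjamini-Hochberg adjusted p = 0.569). Prc1, which bundles the microtubules of the midzone, went the other way in its means, at 8.24, 2.23 and 6.96 CPM in WT and 8.20, 10.7 and 4.74 CPM in cD2KO mice (log2 fold change 0.41, edgeR, Benjamini-Hochberg adjusted p = 0.852), and shares 911 exon bases with Rccd1 on the opposite strand. Anln, the contractile ring scaffold, had 13, 12 and 13 counts against 0, 5 and 16, and Ect2, the exchange factor that activates RhoA, 8, 3 and 8 against 1, 6 and 2.

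Of the spindle genes, Tpx2 and Nusap1 were tested and neither had an unadjusted p under 0.05. Tpx2, which activates Aurora A on the spindle, had the highest fold change of the 24 genes, 0.57 ± 0.548 (SE), and this rested on fl125, with 22, 18 and 19 counts in WT and 38, 17 and 17 in cD2KO mice (5.67, 6.68 and 6.61 CPM against 17.3, 5.85 and 5.37 CPM, edgeR, Benjamini-Hochberg adjusted p = 0.749). Nusap1, a spindle-associated microtubule binder, overlapped between the groups at 2.78 to 10.02 CPM in WT and 1.37 to 7.22 CPM in cD2KO mice. Hmmr, which binds spindle microtubules, had 11, 11 and 10 counts in WT and 2, 4 and 4 in cD2KO mice, without overlap. Ckap2l (8, 13 and 8 against 3, 7 and 1 counts), the spindle motor Kif11 (2, 2 and 4 against 4, 0 and 5) and the midzone kinesin Kif20a (12, 6 and 5 against 5, 5 and 0) overlapped. Kif20a shares 1271 exon bases with Cdc23 on the opposite strand.

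The 3 S-phase genes, enzymes that make DNA precursors, overlapped between the groups, and 0 of them had an unadjusted p under 0.05. Tyms, thymidylate synthase on chromosome 5 (30058202 to 30073617, minus strand), had 73, 63 and 57 counts in WT and 30, 65 and 32 in cD2KO mice. At 18.8, 23.4 and 19.8 CPM against 13.7, 22.4 and 10.1 CPM, fl126 lay within the WT range and the other 2 cD2KO mice below it (log2 fold change -0.42 ± 0.352, SE, edgeR, Benjamini-Hochberg adjusted p = 0.703). Rrm2, the cell cycle-regulated subunit of ribonucleotide reductase, was at 6.70, 7.43 and 1.74 CPM in WT and 2.73, 5.16 and 6.0 CPM in cD2KO mice (log2 fold change -0.18). Tk1, thymidine kinase, was at 9.53, 13.7 and 11.5 CPM and 11.8, 15.1 and 7.26 CPM (log2 fold change -0.02), and both overlapped. Their summed level was 35.02, 44.6 and 33.1 CPM in WT and 28.2, 42.6 and 23.4 CPM in cD2KO mice. The sums of the APC/C pair (30.4, 21.2 and 17.4 CPM against 9.56, 7.57 and 11.4 CPM) and of the chromosome pair (57.2, 69.1 and 66.8 CPM against 36.9, 46.1 and 37.3 CPM) did not overlap. The difference between S-phase and mitotic genes was not tested.

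**Figure D4:**
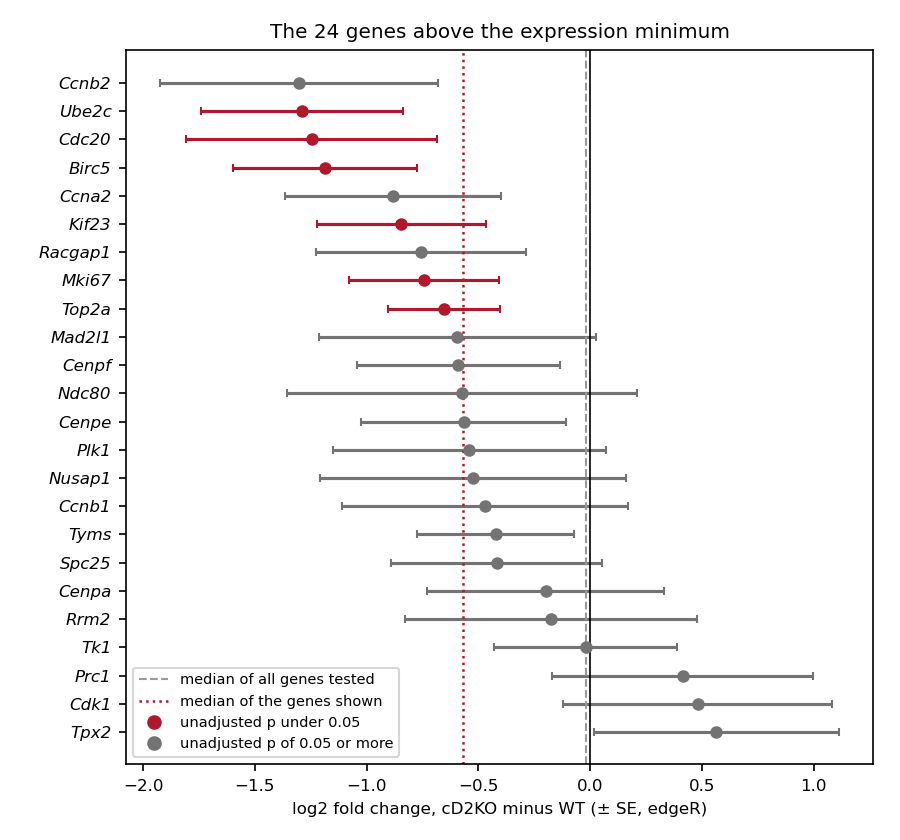
The points give the log2 fold change (cD2KO minus WT, x axis) of the 24 genes above the expression minimum with its SE, in red where the unadjusted p of edgeR's quasi-likelihood test is under 0.05. The dotted line is the median of the 24 genes (-0.57), the dashed line that of all genes tested (-0.02), and 21 of the 24 points lie left of 0.

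The 11 genes under the expression minimum (Aurka, Aurkb, Bub1, Bub1b, Nuf2, Kif11, Kif20a, Ckap2l, Hmmr, Anln and Ect2) reached at most 8.54 CPM in any mouse. Their summed level was 22.4, 40.8 and 30.3 CPM in WT and 14.1, 15.8 and 14.5 CPM in cD2KO mice, and the groups did not overlap. The WT mean was 31.2 ± 9.25 CPM and the cD2KO mean 14.8 ± 0.889 CPM (SD, n = 3 per group), and 9 of the 11 had the higher mean in WT. In cD2KO libraries 2, 2 and 1 of the 35 genes had no count, against 0 in each WT library. Over the whole table, 15388, 15491 and 14487 genes had a count in the WT and 13985, 14738 and 14824 in the cD2KO libraries. A count of 0 allows up to 1.37 CPM in fl125, which was the shallowest library. When all 18040 genes with a count were tested, 6 of the 35 were lower at an unadjusted p under 0.05 (5.76% of all genes) and 0 higher (5.21%), and the 6 were Ccnb2, Cdc20, Ube2c, Birc5, Nuf2 and Top2a. The median log2 fold change of the 35 was then -0.62, against -0.03 for all genes, and the lowest adjusted p 0.229 (edgeR, Benjamini-Hochberg).

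The level also varied among mice of a group. Of the 35 genes, 16 had their lowest level in fl125 and 9 in fl128, while 15 had their highest level in c129 and 10 in c130. The shares over all genes were not counted, and fl125 was the shallowest library, so that these numbers are description only. The library labelled fl125 was the highest of the 6 for 3 genes, Cdk1 and Tpx2 among them.

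Other genes of cell division were counted in the same fit. Of 97 other genes of mitosis, 53 were tested and 3 (5.66%) were lower at an unadjusted p under 0.05, near the 6.62% of all genes, with 0 higher. They were Cks1b, a Cdk-binding subunit (20.9, 18.6 and 23.7 CPM in WT and 12.8, 10.7 and 9.16 CPM in cD2KO mice; log2 fold change -0.96), the condensin subunit Smc4 (-0.59) and the APC/C inhibitor Fbxo5 (-1.57), with Benjamini-Hochberg adjusted p of 0.248, 0.367 and 0.380 (edgeR). The median of the 53 was -0.33, and 35 were below 0. The summed level of the 97 genes was 1758 ± 84.0 CPM for WT and 1744 ± 109 CPM for cD2KO mice (SD, n = 3 per group), 0.804% lower and overlapping. The core subunits of the APC/C in it had log2 fold changes from -0.33 (Anapc1) to 0.39 (Anapc2), all at an unadjusted p of 0.05 or more. Of 58 other S-phase genes, 44 were tested and 2 (4.55%) were lower, Chaf1a of the chromatin assembly factor (7.21, 16.7 and 21.2 CPM against 6.38, 5.85 and 6.0 CPM; log2 fold change -1.29) and Dtl, a replication-coupled ubiquitin ligase receptor (-1.28), with adjusted p of 0.277 and 0.375 (edgeR, Benjamini-Hochberg). The median of the 44 was -0.31, with 0 higher. Among 27 regulators of these genes (DREAM and MuvB subunits, E2F and retinoblastoma family, NF-Y, FoxM1, CDK inhibitors and p53), 23 were tested, 0 had an unadjusted p under 0.05 in either direction and the median was 0.01. Foxm1 itself was at 3.86, 10.02 and 5.57 CPM in WT and 2.28, 5.50 and 6.32 CPM in cD2KO mice, overlapping.

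Markers of several other cell types were also lower in cD2KO mice at an unadjusted p under 0.05. In the fit with the expression minimum, 0 genes of the marker lists had an adjusted p under 0.05 (edgeR, Benjamini-Hochberg). In the fit without a minimum, markers passed in both directions. Flt1 and Ptprc were lower and Acta2 higher, with adjusted p of 4.39e-06, 2.41e-05 and 6.02e-05 (edgeR, Benjamini-Hochberg). The 14 myeloid markers, all tested, all had negative log2 fold changes with a median of -1.91, and 4 (Ptprc, Cd68, Adgre1 and Itgam) were lower at an unadjusted p under 0.05. Their summed level was 3964, 7108 and 4786 CPM in WT and 216, 2054 and 2311 CPM in cD2KO mice, without overlap. The mouse with the highest sum of the 35 genes, c129, had the highest myeloid sum, and that with the lowest, fl125, the lowest. Between fl126 and fl128 the order differed. The myeloid sum was higher in fl128, while the sum of the 35 genes was 227 CPM in fl126 and 188 CPM in fl128, near the 184 CPM of fl125. Of the 12 endothelial markers 11 were tested and 7 were lower (summed level 265, 341 and 407 CPM against 225, 208 and 267 CPM, overlapping). Tek and Esam had positive log2 fold changes, 0.04 and 0.32. Esam was at 130, 76.9 and 144 CPM in WT and 145, 146 and 148 CPM in cD2KO mice, and the sums do not overlap without it. The 10 genes of the response to cell dissociation, among them Fos and Jun, were all tested and 7 were lower (3853, 12108 and 6467 CPM against 3342, 4983 and 3476 CPM, overlapping). Like the myeloid sum and that of the 35 genes, this sum was highest in c129 and lowest in fl125, while c124 was below fl126. In the opposite direction, the 12 muscle stem cell markers summed to 2538, 1904 and 2547 CPM in WT and 3583, 2860 and 2800 CPM in cD2KO mice. Of these, 4 (Myf5, Cdh15, Itga7 and Des) were higher, while 3 (Sdc4, Spry1 and Vcam1) had log2 fold changes of -0.46, -0.45 and -0.09. Des was at 325, 251 and 369 CPM in WT and 454, 530 and 842 CPM in cD2KO mice, and the sums overlap without it. The 8 mural markers summed to 9139, 5259 and 6619 CPM against 10740, 11431 and 15579 CPM, with 3 (the contractile genes Acta2, Myh11 and Tagln) higher. The log2 fold changes of the pericyte genes Rgs5, Pdgfrb, Abcc9 and Kcnj8 were 0.00, -0.06, -0.23 and -0.36, and the median of the 8 mural markers was 0.13. The 8 fibroadipogenic markers (2 lower, Col1a2 and Lum), the 8 lymphoid, 6 erythroid and 8 committed myogenic markers overlapped in their sums, and Cd79a was at 0 in all 6 mice. The part of these cells in the difference of the 35 genes was not tested.

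**Figure D5:**
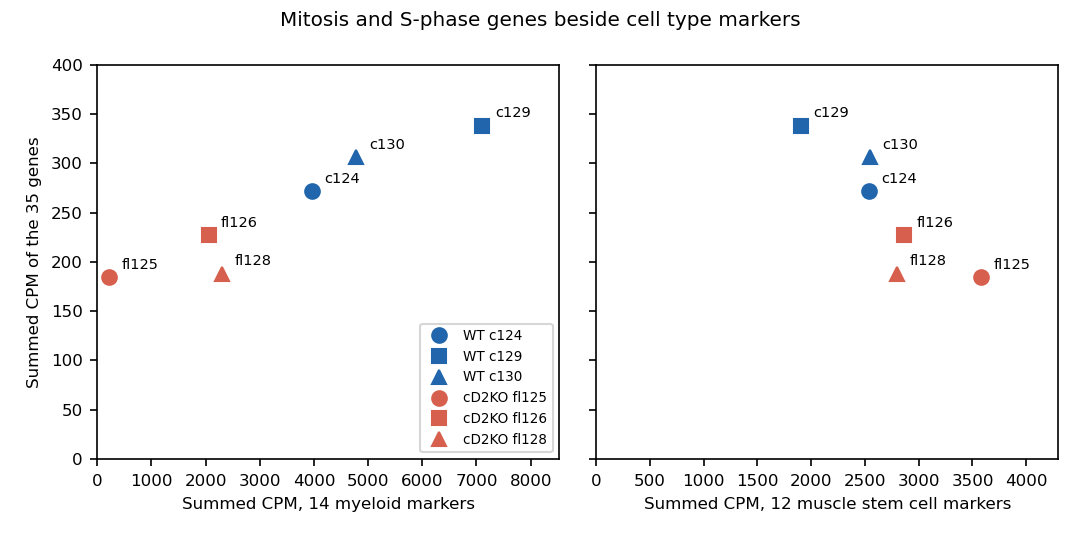
Each point is a mouse, with the summed CPM of the 35 genes on the y axis and the summed CPM of the 14 myeloid (left) or 12 muscle stem cell markers (right) on the x axis, in blue for WT and in red for cD2KO. The WT mice hold the higher values of both the 35 genes and the myeloid markers (3964 to 7108 CPM against 216 to 2311 CPM). They hold the lower sums of the 12 stem cell markers, which overlap if Des is left out.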

How the data were processed

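RNA of qMuSCs sorted from resting muscle was sequenced from 3 WT and 3 cD2KO mice. The authors purified RNA on RNeasy columns, had it sequenced by a commercial digital RNA-seq service, and deposited a table of raw read counts for each gene and mouse, as whole numbers without normalization. The submitters' processing notes name bcl2fastq, STAR 2.6.0a, HTSeq 0.9.1 and mm10. The options of counting, the annotation, whether strand was used and whether PCR copies were removed are not given in the sources used here, and PCR copies left in would make the counting intervals too narrow. Mice were grouped by the genotype in their labels, and their numbers pair no mice across groups.

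Gene identifiers were matched to GENCODE M21 symbols (31011 of 31053). The expression minimum was that of the study, a mean above 10 after DESeq2 normalization. All 6 mice were fitted with TMM scaling and edgeR 4.0.16's robust quasi-likelihood test in R 4.3.3, with Benjamini-Hochberg adjustment over the 11633 genes. The test was first run on simulated counts. CPM use TMM library sizes, and the depth of 2184073 to 3897787 counts limits genes near 1 CPM. Motifs were searched in RefSeq promoter windows with Python 3.11.15. The members and lists were chosen with earlier results of these data known. By the rule for named genes, a gene is given in every mouse where its unadjusted p was under 0.05, where it is Mki67, Top2a, Cdk1 or Ccnb1, or where it is among the 3 with the highest mean CPM. Other genes given by mouse were chosen after their values were seen. Alternatives were DESeq2 1.42.0, voom in limma 3.58.1, other scalings and filters, non-robust estimation and leaving out each mouse. The result of 1 marker list is not reported here.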

Additional observations from a re-analysis of the deposited data

How the results depend on the processing

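None of the 9 genes chosen by the rule for named genes changed the sign of its fold change in the 14 alternative fits. The number of the 35 genes lower at an unadjusted p under 0.05 was 6 in the reported fit, where 6.62% of all genes were lower. It was 4 with the Wald test of DESeq2 (5.99%) or with limma voom (6.58%) and 7 with scaling to the total count (8.19%). With the other scalings and filters, and without robust estimation, it was 6 (5.76% to 7.09%). Leaving out a mouse gave 2 to 4, with 2 without c129, fl125 or fl128 and 3 without fl126, where 3.46% to 7.43% of all genes were lower. Without fl125, 2 of 25 genes stand against 7.43% of all genes. None was higher at an unadjusted p under 0.05, and none had an adjusted p under 0.05, in edgeR, DESeq2 or voom, where the lowest adjusted p was 0.176 to 0.529. The median log2 fold change ranged from -0.77 without fl126 to -0.31 without fl125, and the log2 ratio of the summed level from -0.71 to -0.53 over 11 alternatives. Mki67 kept an unadjusted p under 0.05 in 0 of 6 fits that left out a mouse, Cdc20 in 1, Kif23 in 2, Top2a in 3, Ube2c in 4 and Birc5 in 5. Of all genes tested, 770 were lower and 621 higher with TMM scaling, and 953 and 439 with the total count. The cause of these changes was not tested. No paired analysis was possible because the mouse numbers differ between the groups. Depth limits the 11 genes under the expression minimum, where single counts decide the level.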
